A study of Mus with 12 samples.

Results

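The Ms4a genes described here are Ms4a6b, Ms4a6c, Ms4a6d, Ms4a4c, Ms4a4a and Ms4a7, which are grouped as myeloid members of the Ms4a cluster. They were taken by symbol, and they make up 6 of the 14 Ms4a genes and 6 of the 25247 genes in the expression table of mouse blood. Ms4a1, Ms4a2 and Ms4a4b were kept out of the group because they are known from B cells, mast cells and basophils, and T cells. The group was selected on its blood FPKM values and their differences between the groups in earlier results of these data. The study also chose Ms4a4a, Ms4a6c and Ms4a6d on these samples, as genes higher in DNCB than in both treated groups. The values of the 6 genes below, and the calls made on them in a fit over all genes, are therefore a description. The calls of that fit are printed beside the share of all genes called, and no call on these 6 genes is independent evidence.

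Blood RNA of female BALB/c mice, 6 weeks old at the start and killed on day 30, gave 12 libraries, 3 per group. The study had 6 mice per group. Each library is taken here as 1 mouse, which the labels do not state. The Solvent group had only the carrier, a mixture of acetone and olive oil, on the shaved back and right ear. The DNCB group was sensitised there with 1% 1-chloro-2,4-dinitrobenzene, a contact allergen, and challenged again and again with 0.5%, which gives a dermatitis that models atopic disease. The scMSC group had the same DNCB course and doses of 2e6 human umbilical cord mesenchymal stem cells in 100 µL under the skin, and in the scivMSC group the dose was split into 50 µL under the skin and 50 µL into the tail vein. The labels name no transgene or deletion, the injected cells were human, and no group had DNCB with a cell-free injection, so injection and cells cannot be told apart.

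Ms4a proteins are small membrane proteins that cross the plasma membrane 4 times and sit beside receptors, whose signals they modulate. The best known are Ms4a1, the B cell antigen CD20, and Ms4a2, the beta chain of the IgE receptor on mast cells and basophils. Ms4a4a is known from macrophages, where it associates with the fungal receptor Dectin-1, and Ms4a7 is likewise known as a macrophage gene. Ms4a6c and Ms4a6d are known from monocytes and macrophages, Ms4a4c is an interferon-responsive gene, and Ms4a6b has also been described in T cells.

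The libraries held 52.2e6 to 65.1e6 estimated counts each. Haemoglobin genes took 78.4% to 89.0% of these counts and left 5.84e6 to 12.9e6 for all other genes. Levels are given as FPKM, fragments per kilobase of transcript and 1e6 fragments, which allows genes to be compared per length. Low counts favoured multiples of 4, for a reason not stated: of the values from 1 to 12, 29.0% were 4, although 9.07% were 2 and 9.68% were 1. On the assumption of about 4 counts per sequenced fragment, 12 counts, or 3 fragments, were taken as the floor of detection in a library, and every bound below rests on it. In whole blood, fewer cells of a type and less RNA per cell cannot be told apart.

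All 6 genes lie on chromosome 19 between positions 11321039 and 11604849, in coordinates that overlap the GRCm38.p6 genes. In this order along the chromosome they are Ms4a7 (minus strand), Ms4a4a, Ms4a4c, Ms4a6c and Ms4a6b (plus strand) and Ms4a6d (minus strand). The stretch from the outermost Ms4a gene to the other is 663 kb long and holds 25 genes, of which 9 passed the filter on low values, 1 FPKM or more in 3 or more libraries. Ms4a6c shares 12027 bases with BE692007, a gene on the other strand. Ms4a6b overlaps Gm19261 by 442 bases and Ms4a4c overlaps Gm5692 by 235. Whether reads were counted by strand is not stated, so their levels are uncertain to that extent, and reads of such similar paralogs may also have been divided between them.

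**Figure D1:**
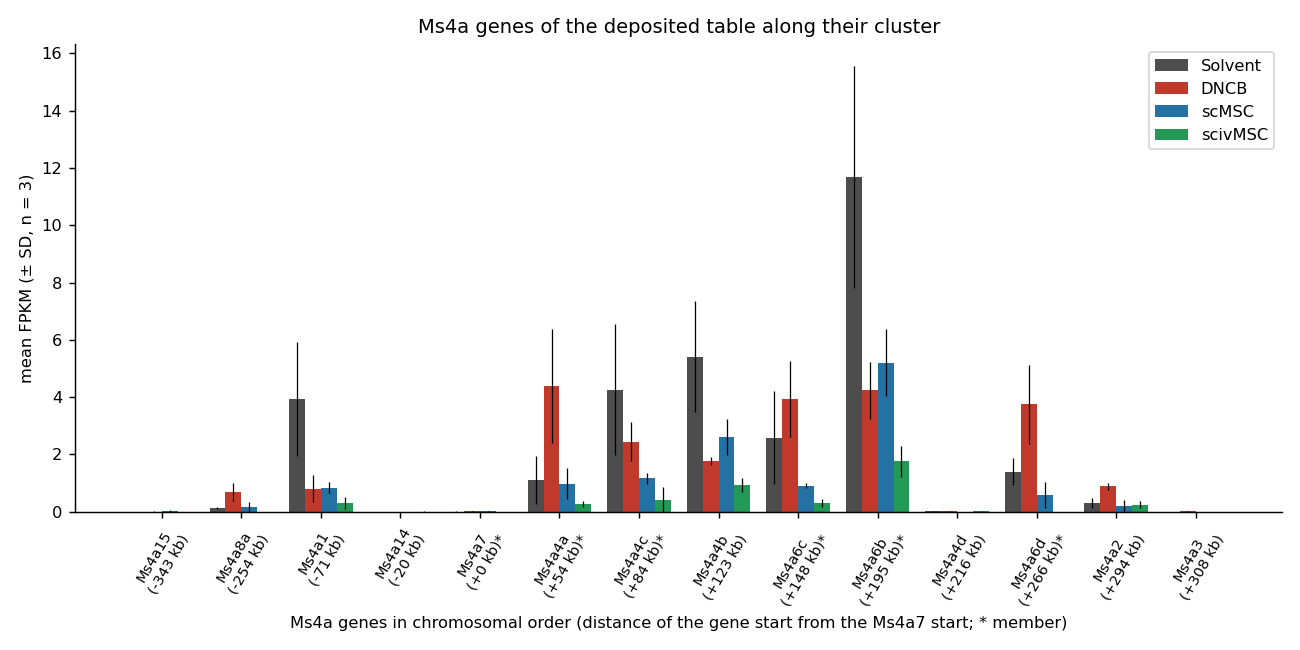
Mean FPKM of the 14 Ms4a genes in chromosomal order, with the distance of each gene's start from that of Ms4a7 in kb under the name, an asterisk for the 6 genes described here, and whiskers for the SD over 3 mice. Ms4a6b reached 11.7 in Solvent and Ms4a7 stayed near 0, and neighbours such as Ms4a6c and Ms4a6b were highest in different groups.

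Of the 6 genes, 5 passed the filter and Ms4a7 did not. The 5 followed different orders over the groups. Ms4a6d, Ms4a4a and Ms4a6c had their highest mean in DNCB, while Ms4a6b and Ms4a4c had theirs in Solvent. The lowest mean of every one of the 5 was in scivMSC.

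Ms4a6d, a monocyte and macrophage gene, had FPKM values of 1.87, 1.41 and 0.921 in the Solvent mice and 2.31, 5.04 and 3.88 in the DNCB mice. Its values were 1.09, 0.325 and 0.289 in scMSC, and it was listed at 0 in all 3 scivMSC libraries, with 0 counts in each. Every DNCB mouse thus lay above every Solvent and scMSC mouse, whereas Solvent and scMSC overlapped. The floor of 3 fragments allows up to 0.122 FPKM in the scivMSC libraries. Against that floor, scivMSC was at least 31.0-fold lower than DNCB, at least 11.6-fold lower than Solvent and at least 4.70-fold lower than scMSC. The log2 fold change was 1.41 ± 0.56 (SE) for DNCB against Solvent and -2.71 ± 0.59 (SE) for scMSC against DNCB.

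Ms4a4a, the partner of Dectin-1 in macrophages, reached 2.00, 0.343 and 0.971 FPKM in Solvent and 2.99, 6.66 and 3.51 in DNCB. In scMSC it stood at 1.39, 0.368 and 1.18, and in scivMSC at 0.385, 0.161 and 0.237. The DNCB mice were apart from all others, while Solvent, scMSC and scivMSC each overlapped the next group. In the scivMSC libraries these levels rest on 8 to 19 counts, at or near the floor. Solvent replicate 2, at 19 counts, and scMSC replicate 2, at 20, were near it too. The log2 fold change was 1.98 ± 0.66 (SE) for DNCB against Solvent. Relative to DNCB it was -2.17 ± 0.67 (SE) in scMSC and -4.00 ± 0.74 (SE) in scivMSC. For DNCB against Solvent it ranged from 1.54 without DNCB replicate 2 to 2.72 without Solvent replicate 1.

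Ms4a6c, a monocyte gene, had 4.43, 1.86 and 1.45 FPKM in Solvent and 2.98, 5.45 and 3.37 in DNCB. It was at 0.950, 0.816 and 0.965 in scMSC and at 0.410, 0.135 and 0.354 in scivMSC. The scivMSC levels rest on 16 to 50 counts, the lowest of them near the floor. Solvent and DNCB overlapped through Solvent replicate 1, and below them scMSC and then scivMSC stood apart with no overlap. The log2 fold change was 0.61 ± 0.48 (SE) for DNCB against Solvent, and 1.25 without Solvent replicate 1. Relative to DNCB it was -2.11 ± 0.50 (SE) in scMSC and -3.67 ± 0.54 (SE) in scivMSC.

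Ms4a6b, the most abundant of the 6 genes in Solvent, had 16.1, 9.75 and 9.15 FPKM there and 4.38, 5.14 and 3.18 in DNCB. The scMSC mice had 6.43, 4.10 and 5.09 and the scivMSC mice 2.28, 1.21 and 1.79. Its order was thus unlike that of Ms4a6d, with Solvent above every other mouse, DNCB and scMSC overlapping, and scivMSC below them all. The log2 fold change was -1.46 ± 0.34 (SE) for DNCB against Solvent and 0.29 ± 0.33 (SE) for scMSC against DNCB. In scivMSC, relative to DNCB, it was -1.27 ± 0.34 (SE) with libraries scaled by their totals, and it turned to 0.35 ± 0.16 (SE) with TMM scaling, which centres most genes.

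Ms4a4c, the interferon-responsive member, had 6.82, 3.51 and 2.46 FPKM in Solvent and 2.29, 3.19 and 1.84 in DNCB. It had 1.16, 0.977 and 1.34 in scMSC and 0.274, 0 and 0.904 in scivMSC. Solvent and DNCB overlapped, every scMSC mouse was below every DNCB mouse, and every scivMSC mouse was below every scMSC mouse. The scivMSC mice differed widely from each other, with 28, 0 and 91 counts. On the log2 scale DNCB differed from Solvent by -0.80 ± 0.78 (SE), scMSC from DNCB by -1.08 ± 0.79 (SE) and scivMSC from DNCB by -2.62 ± 0.84 (SE). The last value moved to -4.13 without scivMSC replicate 3.

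Ms4a7, the macrophage gene, had at most 12 counts in any library, so it was at the floor throughout. Its highest value was 0.0398 FPKM, in scMSC replicate 2, and it was listed at 0 in the scivMSC libraries. No fold change is given for it. The macrophage marker list was low too: its 8 genes in the table, C1qa, C1qb and C1qc among them, summed to between 0.250 and 1.39 FPKM per library, none passed the filter, and Marco and Timd4 were at 0 in all DNCB libraries.

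**Figure D2:**
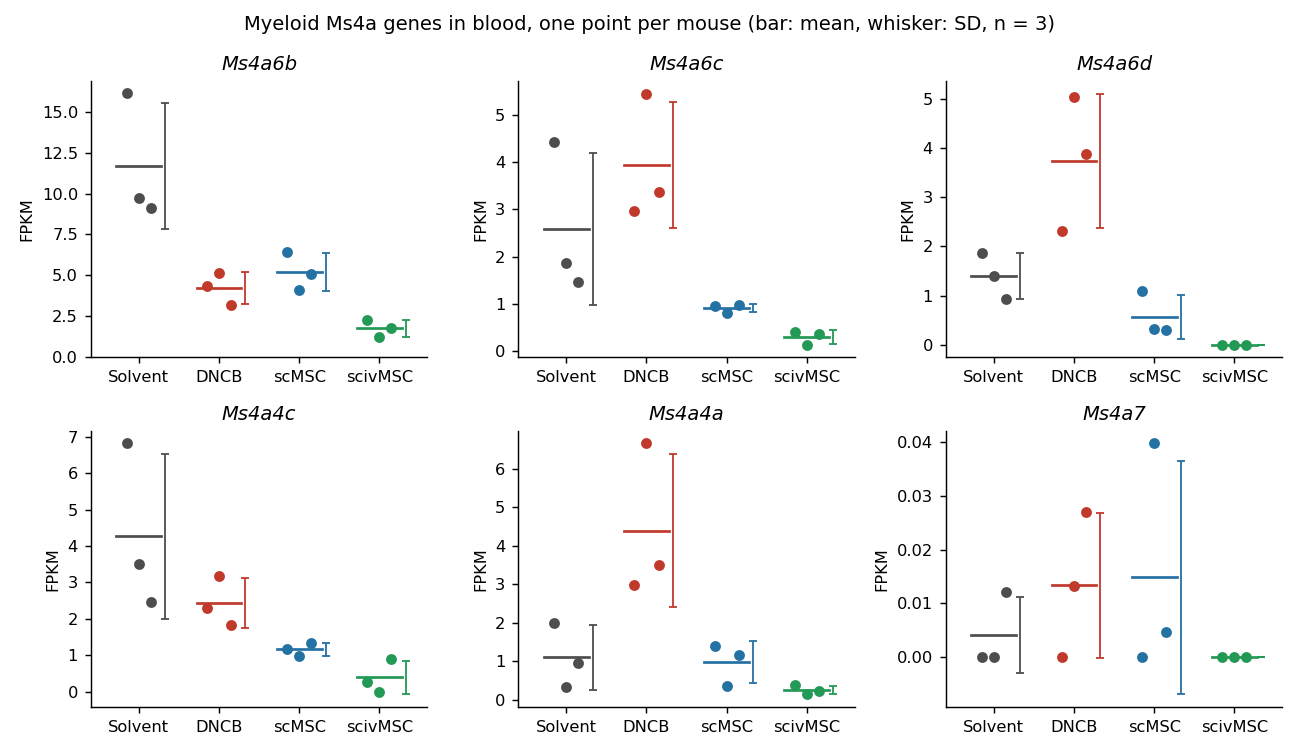
FPKM of each of the 6 genes in every mouse, by group, with a bar for the mean and a whisker for the SD over 3 mice, and a vertical scale of its own per panel. Ms4a6d, Ms4a4a and Ms4a6c were highest on average in DNCB, Ms4a6b and Ms4a4c in Solvent, and Ms4a6d was at 0 in the scivMSC mice.

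Within the groups, the same mouse often led for several of the genes. Solvent replicate 1 was highest in its group for 5 of 5 tested genes and DNCB replicate 2 for 5 of 5, and scivMSC replicate 2 was lowest, or at 0 with the others, for 5 of 5. Solvent replicate 1 also had the highest Csf1r level of its group, at 4.79 FPKM, and DNCB replicate 2 the highest of its own, at 13.9. Their haemoglobin shares of counts were the lowest of their groups, at 79.7% and 78.4%. scivMSC replicate 2 had a Csf1r level of 0.249 and a haemoglobin share of 89.0%, the highest of all libraries, and 11806 genes with at least 4 counts, the fewest. The part of these differences in the values of the Ms4a genes was not tested.

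The summed level of the 6 genes spanned 15.0 to 31.2 FPKM in Solvent and 14.9 to 25.5 in DNCB, ranges that overlap. It was 6.63 to 11.0 in scMSC and 1.51 to 3.34 in scivMSC. What differed between Solvent and DNCB was the make-up of the sum. Ms4a6b supplied 56.8% ± 4.83 (SD, n = 3) of it in Solvent and 23.2% ± 5.28 (SD, n = 3) in DNCB. In DNCB 3 other genes supplied similar shares, with 20.9% ± 0.833 (SD, n = 3) from Ms4a6c, 19.9% ± 4.54 (SD, n = 3) from Ms4a6d and 22.8% ± 3.10 (SD, n = 3) from Ms4a4a. In scMSC the share of Ms4a6b was back at 59.2% ± 2.36 (SD, n = 3), and it was 67.6% ± 12.9 (SD, n = 3) in scivMSC.

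In a fit over all 5527 genes that passed the filter, a gene was called at an adjusted p under 0.05 and a fold change over 2, by edgeR's quasi-likelihood test with Benjamini-Hochberg adjustment. For DNCB against Solvent 2 of the 5 genes were called, Ms4a4a as higher and Ms4a6b as lower, beside 20.5% of all genes tested. The Ms4a4a call was lost when any DNCB mouse, Solvent replicate 2 or 3, or scMSC replicate 3 was left out. The median log2 fold change of the 5 genes was 0.61, against 0.06 over all genes tested. DNCB and Solvent did not overlap for Ms4a6d, Ms4a4a and Ms4a6b, 3 genes of 5, and for 41.5% of all genes tested.

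The comparisons of the treated groups with DNCB share the DNCB mice, so their values are set side by side. For scMSC against DNCB 3 of the 5 genes were called, Ms4a6c, Ms4a6d and Ms4a4a, all lower, beside 24.9% of all genes tested that were called as lower. The Ms4a4a call was lost without DNCB replicate 2 or without scMSC replicate 2 or 3. The groups did not overlap for 4 of the 5 all lower, and for 49.8% of all genes in that direction. The median was -2.11 against -0.63 over all genes. For scivMSC against DNCB 5 of 5 were called as lower, beside 62% of all genes tested, and the groups did not overlap for 5 of 5, lower in scivMSC, beside 67.9%. The median was -3.67 against -1.53. TMM scaling called 3 of 5 there, Ms4a6c, Ms4a6d and Ms4a4a, as lower, beside 18.9% of all genes.

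Between the treated groups, scivMSC against scMSC, 3 of the 5 genes were called as lower in scivMSC, Ms4a6b, Ms4a6c and Ms4a6d, beside 30.4% of all genes tested. TMM scaling called Ms4a6d alone, beside 4.92% of all genes. The Ms4a6c call was lost without scMSC replicate 1 or 3 or without scivMSC replicate 2 or 3. The groups did not overlap for 4 of the 5, all but Ms4a4a, and for 46.7% of all genes, each time lower in scivMSC. Ms4a6b differed by -1.55 ± 0.34 (SE) on the log2 scale and Ms4a6c by -1.55 ± 0.51 (SE). The median was -1.55 against -0.87 over all genes.

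Set against Solvent, scMSC had 0 of the 5 genes called by edgeR's quasi-likelihood test, beside 0.651% of all genes, while 4 had an unadjusted p under 0.05. DESeq2 also called 0 of them, and limma called 2 with a pseudocount of 1 and 0 with a pseudocount of 0.1. Without scivMSC replicate 2, which enters only through the shared spread, edgeR called 3 of them, and without scivMSC replicate 1 it called 2. The share of all genes called under these alternatives is not given, so nothing is read from their counts. Ms4a6b, Ms4a6c and Ms4a4c were lower in every scMSC mouse than in every Solvent mouse, as were 40.6% of all genes. Their log2 fold changes were -1.17 ± 0.34 (SE) for Ms4a6b, -1.50 ± 0.50 (SE) for Ms4a6c and -1.89 ± 0.80 (SE) for Ms4a4c. That of Ms4a4a was near 0, at -0.19 ± 0.65 (SE), and changed sign with TMM scaling, at 0.40.

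For scivMSC against Solvent 5 of 5 genes were called as lower, beside 59.2% of all genes tested, and 4 of 5 did not overlap, again lower, beside 62.6%. Log2 fold changes were -2.73 ± 0.36 (SE) for Ms4a6b, -3.06 ± 0.53 (SE) for Ms4a6c, -3.42 ± 0.86 (SE) for Ms4a4c and -2.02 ± 0.70 (SE) for Ms4a4a. The Ms4a4a call was lost without Solvent replicate 1, and its groups overlapped. The median log2 fold change over all genes tested was -1.47 here, and TMM scaling moved it by 1.42.

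**Figure D3:**
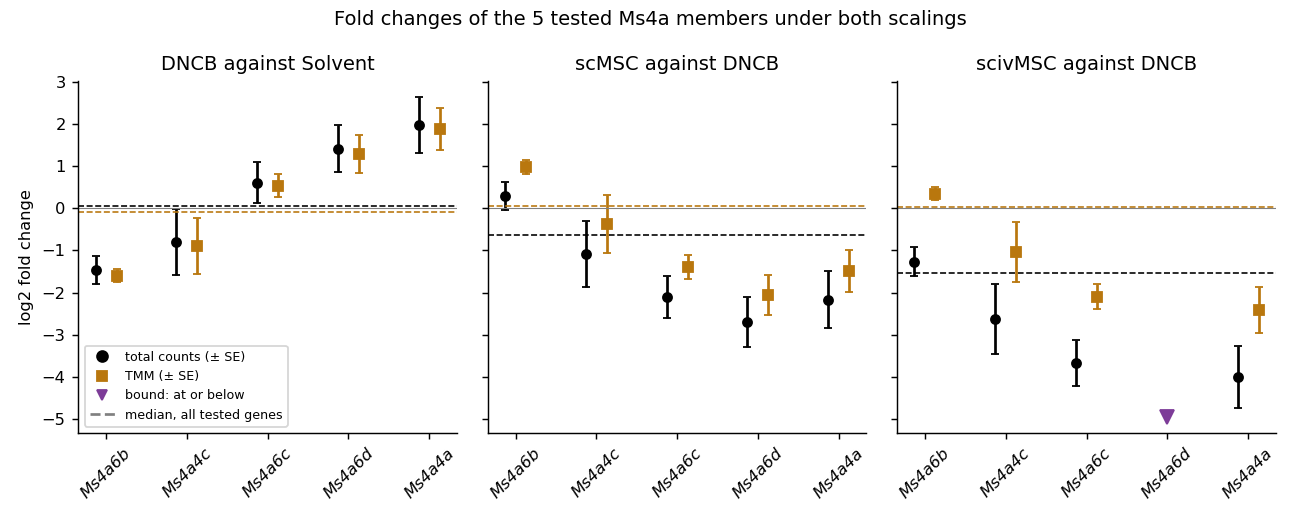
Log2 fold changes of the 5 tested genes with their SE in 3 comparisons, from edgeR with total-count scaling (circles) and TMM scaling (squares), with dashed lines for the median of all 5527 genes under each scaling. Ms4a6d in scivMSC is drawn as a bound from the floor. Ms4a6b, at -1.27 and 0.35 in scivMSC against DNCB, changed side with the scaling.

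The label of the group as myeloid was compared with marker lists of blood cells. Of 7 tested markers shared by monocytes, 5 were called as higher in DNCB than in Solvent, 6 as lower in scMSC than in DNCB and 7 as lower in scivMSC than in DNCB, with medians of 1.61, -2.22 and -3.40. Over all genes tested, 20.5% were called in the first comparison in either direction, and 24.9% and 62% as lower in the last 2. With TMM scaling 5 and 4 of the 7 were called as lower in the last 2, beside 18.9% of all genes in scivMSC against DNCB. The TMM share of all genes is not given for scMSC against DNCB, so nothing is read from the 5 there. The summed FPKM of the 10 markers in the table was 63.1 to 189 in Solvent, 432 to 686 in DNCB, 88.3 to 99.0 in scMSC and 75.1 to 109 in scivMSC. Most of that sum is Lyz2, lysozyme, which neutrophils also make. The neutrophil list moved further, with 10 of 10 called as higher in DNCB than in Solvent, a median of 4.96 and sums of 221 to 446 in Solvent and 6985 to 10978 in DNCB. The part of either cell type in the Ms4a values was not tested.

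Csf1r, the receptor for macrophage colony-stimulating factor and a defining gene of monocytes, had 3.12 ± 1.61 FPKM (SD, n = 3) in Solvent, 10.3 ± 3.12 in DNCB, 2.23 ± 0.452 in scMSC and 0.550 ± 0.300 in scivMSC. By edgeR's quasi-likelihood test with Benjamini-Hochberg adjustment it rose in DNCB against Solvent, by 1.73 ± 0.44 on the log2 scale (adjusted p = 0.00978). In the same fit it was lower in scMSC than in DNCB, at -2.22 ± 0.45 (adjusted p = 0.00218), and lower in scivMSC than in scMSC, at -2.01 ± 0.45 (adjusted p = 0.0108).

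Ratios to Csf1r within each library, which library scaling cannot change, were computed after the values had been seen. Ms4a4a stood at 38.0% ± 24.9 (SD, n = 3) of the Csf1r level in Solvent, 41.4% ± 6.01 in DNCB, 42.8% ± 21.0 in scMSC and 51.0% ± 11.9 in scivMSC, and each group overlapped the others. In scivMSC these ratios rest on 8 to 19 counts of Ms4a4a, at or near the floor, which averaged 0.251 FPKM for this gene. Csf1r itself was at 0.249 FPKM in scivMSC replicate 2. The scivMSC ratios thus cannot show whether Ms4a4a kept its level relative to Csf1r. As a share of the summed shared monocyte markers, however, Ms4a4a was at 0.297% to 1.54% in Solvent, 0.590% to 0.970% in DNCB and 0.417% to 1.41% in scMSC, and at 0.215% to 0.352% in scivMSC, below every DNCB and scMSC library. Lyz2, which makes up most of that sum, differed between scivMSC and scMSC by 0.09 on the log2 scale (adjusted p = 0.833, edgeR's quasi-likelihood test with Benjamini-Hochberg adjustment), and by 1.05 with TMM scaling, unlike Csf1r, so the ratio of Ms4a4a depends on the gene it is set against. Ms4a6c was at 82.2% ± 16.7 (SD, n = 3) in Solvent, 37.9% ± 1.77 in DNCB, 41.6% ± 6.82 in scMSC and 55.6% ± 8.13 in scivMSC. Its Solvent ratios, 63.0% to 92.4%, lay above all DNCB and scMSC ratios, 34.5% to 48.1%. Relative to Solvent, Ms4a6c was thus less raised in DNCB than Csf1r was.

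Ms4a6d was at 48.1% ± 9.37 (SD, n = 3) of Csf1r in Solvent, 36.2% ± 8.27 in DNCB and 23.6% ± 14.0 in scMSC, with overlaps between the neighbours. In scivMSC it was listed at 0, and the floor of 3 fragments there corresponds to 14.1%, 49.0% and 22.0% of Csf1r in replicates 1, 2 and 3. A ratio as high as in DNCB, 27.9% to 44.4%, would have been above the floor in replicates 1 and 3 and not detectable at this depth in replicate 2. Ms4a4c, related to Ly6c2, a gene of classical monocytes, was at 174% to 235% in Solvent, 54.0% to 80.1% in DNCB and 91.0% to 120% in scMSC, with no overlap between these 3 groups. In scivMSC it was at 25.1%, 0% and 162% of Ly6c2, a span that takes in all DNCB and scMSC ratios.

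Ms4a6b went with lymphocyte genes rather than with monocyte genes. The 5 genes whose profiles over the 12 libraries were closest to it were Il2rg, Cd2, Dgka, Evl and Trib2, at a root mean square difference of 0.098 to 0.129 on the centred log2(FPKM + 1) scale. Il2rg encodes the common gamma chain of cytokine receptors, Cd2 is an adhesion receptor of T and NK cells, and Dgka is a diacylglycerol kinase that dampens T cell receptor signals. Its distance was 0.217 to Ms4a4b, its T cell relative, and 0.877 to Ms4a6d. As a share of the summed T cell markers, Ms4a6b was 24.5% ± 1.19 (SD, n = 3) in Solvent, 20.5% ± 1.43 in DNCB, 20.4% ± 2.34 in scMSC and 19.7% ± 3.97 in scivMSC. As a share of the shared monocyte markers it was 10.5% ± 3.47 in Solvent and 0.784% ± 0.0710 in DNCB. That sum is mostly Lyz2, and Ms4a6c, Ms4a6d and Ms4a4c fell against it too with no overlap, while Ms4a4a overlapped. As means, Ms4a6c went from 2.09% to 0.722%, Ms4a6d from 1.22% to 0.697% and Ms4a4c from 3.51% to 0.448%. That fall therefore does not set Ms4a6b apart. For Ms4a6b its nearest genes and its T cell share thus go against the name myeloid, and no other cell type name is given to it here.

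Over the T cell list, 6 of 8 tested genes were called as lower in DNCB than in Solvent by edgeR's quasi-likelihood test. Of all genes tested, 20.5% were called there in either direction. In the same fit 0 of 8 passed in scMSC against DNCB, where 24.9% of all genes were called as lower. In scivMSC against DNCB 4 of 8 were called as lower, beside 62% of all genes. In scMSC against DNCB 2 had an unadjusted p under 0.05. There edgeR with TMM scaling and DESeq2 each called 6, with TMM all as higher in scMSC. The share of all genes called by either is not given for that comparison, so nothing is read from the 6. In scivMSC against DNCB both called 0, beside 18.9% of all genes called as lower with TMM scaling. With each, 5 of 8 had an unadjusted p under 0.05 there. The TMM median of the list was 0.55, against 0.04 over all genes tested, so the share called as lower is no yardstick for these 5. The summed level was 39.2 to 62.8 FPKM in Solvent, 15.7 to 23.4 in DNCB, 21.2 to 27.9 in scMSC and 4.99 to 12.8 in scivMSC. Lck, the kinase beside the T cell receptor, was at 15.8 ± 4.37 FPKM (SD, n = 3) in Solvent and 6.47 ± 0.952 in DNCB.

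**Figure D4:**
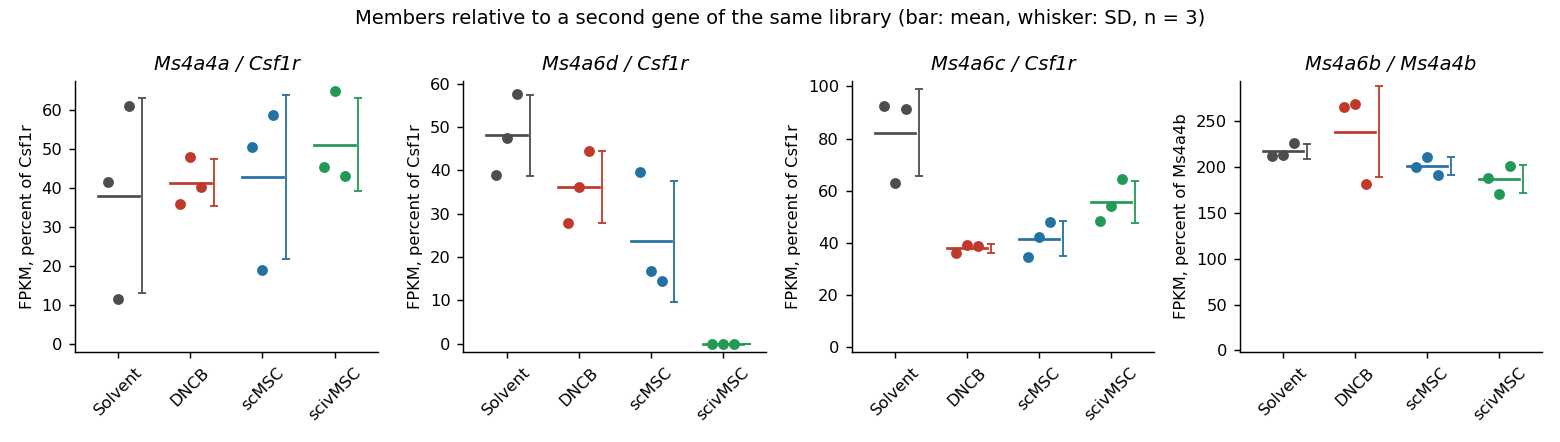
Level of a gene as percent of the FPKM of another gene in the same library, one point per mouse, with a bar for the mean and a whisker for the SD over 3 mice. Ms4a4a averaged 38.0% to 51.0% of Csf1r over the groups with wide spreads, which holds for Csf1r as the gene compared. In scivMSC the Ms4a4a counts were at or near the floor. Ms4a6c had its highest ratios in Solvent, Ms4a6d was at 0 in scivMSC, and Ms4a6b stayed between 170% and 268% of Ms4a4b.

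The other members have different nearest genes. Closest to Ms4a6c were Napsa, Sp140, Arhgef3, Plcg2 and Smap2, at 0.135 to 0.161, Napsa being an aspartic protease and Plcg2 the phospholipase behind several immune receptors. Closest to Ms4a6d were Il4ra, Prelid1, Ifngr2, Apobec1 and Ppm1m, at 0.182 to 0.232, with receptor chains for interleukin 4 and interferon gamma among them. Bin3, Fuca1, Samsn1, Degs1 and Relt were closest to Ms4a4a, at 0.218 to 0.238. For Ms4a4c they were Irf5, Cd3d, Tap2, Xrn2 and Srebf2, at 0.217 to 0.236, a set with both a myeloid transcription factor gene and a T cell gene. Ms4a4c was at 0.404 from Ms4a6b, 0.422 from Ms4a6c, 0.452 from Ms4a4b, 0.631 from Ms4a6d and 0.762 from Ms4a4a. As a share of the summed T cell markers it was 6.26% to 10.9% in Solvent, 10.1% to 13.6% in DNCB and 4.17% to 4.94% in scMSC. Against the shared monocyte markers it was 3.04% to 3.89%, 0.426% to 0.464% and 1.11% to 1.42% in these groups. The name myeloid is thus not settled for Ms4a4c. Between the Ms4a genes themselves Ms4a6c and Ms4a6d were closest, at 0.287, and Ms4a6b and Ms4a4a farthest apart, at 0.978. These distances are descriptions over 12 libraries that share groups and depth.

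The 8 other Ms4a genes were compared next, and 2 of them passed the filter. Ms4a4b, in T cells, had 5.41 ± 1.93 FPKM (SD, n = 3) in Solvent, 1.77 ± 0.136 in DNCB, 2.61 ± 0.636 in scMSC and 0.937 ± 0.251 in scivMSC. It fell in DNCB against Solvent by 1.61 ± 0.33 on the log2 scale (adjusted p = 0.00224, edgeR's quasi-likelihood test with Benjamini-Hochberg adjustment), the same direction as Ms4a6b. In every library Ms4a6b stood at 170% to 268% of Ms4a4b. Ms4a1 had 3.93 ± 1.99 FPKM (SD, n = 3) in Solvent and 0.808 ± 0.486 in DNCB, a fall by 2.27 ± 0.53 on the log2 scale (adjusted p = 0.00537, same test). Against DNCB it was lower in scivMSC, at -1.36 ± 0.52 (adjusted p = 0.0291), and at 0.43 with TMM scaling.

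Ms4a2 and Ms4a8a were too low to be tested. Ms4a2 had 0.145 to 0.501 FPKM in Solvent and 0.754 to 0.993 in DNCB, and its DNCB mice lay above all others. Ms4a8a had 0.0908 to 0.155 in Solvent and 0.355 to 0.962 in DNCB, and it was at 0 in all scivMSC libraries, at least 6.01-fold lower than in DNCB. The remaining 4, Ms4a3, Ms4a4d, Ms4a14 and Ms4a15, had at most 8 counts in any library.

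The genes that work with Ms4a4a in macrophages were described from a list of Dectin-1 and Trem2 partners. Of 8 tested, 6 were called as higher in DNCB than in Solvent, and all 8 as lower in scMSC and in scivMSC than in DNCB. Over all genes tested, 20.5% were called in the first comparison in either direction, and 24.9% and 62% as lower in the other 2. With TMM scaling 5 of 8 were called as lower in each of these 2, beside 18.9% of all genes in scivMSC against DNCB. For scMSC against DNCB the TMM share of all genes is not given, so nothing is read from the 5 there. Medians with total-count scaling were 2.03, -2.14 and -3.12, beside 0.06, -0.63 and -1.53 over all genes tested. Clec7a, which encodes Dectin-1, had 4.49 ± 1.63 FPKM (SD, n = 3) in Solvent, 28.9 ± 4.56 in DNCB, 4.62 ± 0.259 in scMSC and 1.45 ± 0.934 in scivMSC. By edgeR's quasi-likelihood test with Benjamini-Hochberg adjustment it rose by 2.69 ± 0.47 on the log2 scale in DNCB against Solvent (adjusted p = 0.000637). Tyrobp, the adaptor DAP12, rose by 2.71 ± 0.38 (adjusted p = 9.34e-05, same test). Both genes are also made by neutrophils, whose markers moved in the same comparison. Trem2 was low, with 0.0691 to 0.279 FPKM over the libraries, and was not tested.

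Interferon-stimulated genes, the class that Ms4a4c is known from, showed a different order as a list, though not for every gene. Of 11 tested, 1 was called as higher in DNCB than in Solvent, and 1 as higher and 1 as lower in scMSC than in DNCB. In scivMSC against DNCB 4 were called as lower. Over all genes tested, 20.5% were called in the first comparison in either direction, and 24.9% and 62% as lower in the other 2. With TMM scaling 5 of the 11 were called as higher and 2 as lower in scivMSC against DNCB, beside 18.9% of all genes as lower. The share of all genes called as higher is not given for scMSC or scivMSC against DNCB. Nothing is therefore read from the counts called as higher there. The list medians with total-count scaling were -0.10, -0.26 and -0.63, beside 0.06, -0.63 and -1.53 over all genes tested. The summed level overlapped between all groups, with 141 to 222 FPKM in Solvent, 165 to 195 in DNCB, 121 to 207 in scMSC and 157 to 233 in scivMSC.

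BE692007, which overlaps Ms4a6c on the other strand, followed another order than its partner. It had 2.09 ± 0.341 FPKM (SD, n = 3) in Solvent, 1.19 ± 0.406 in DNCB, 0.795 ± 0.394 in scMSC and 0.237 ± 0.0622 in scivMSC. Ms4a6c was at 256% to 419% of it in DNCB and at 79.9% to 225% in the other groups, with no overlap.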

How the data were processed

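Blood RNA was analysed in 12 libraries, 3 in each of 4 groups that the sample titles name. The authors deposited estimated counts and FPKM values per gene, with haemoglobin in the library total. The submitters' processing notes list HISAT2 2.0, StringTie 1.3.0, Bowtie 0.12.2 and the build mm8 without their role. Of 21414 genes matched by symbol, however, 99.9% overlap the GRCm38.p6 gene, whose coordinates are used here as the table gives them.

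The deposited counts were tested with edgeR 4.0.16 (R 4.3.3) in a quasi-likelihood fit of 4 group means over 12 libraries scaled by total counts, for the 5527 genes that reached 1 FPKM in 3 or more libraries, with Benjamini-Hochberg adjustment. The SE printed with an edgeR log2 fold change is its absolute value divided by the square root of the quasi-likelihood F statistic. Alternatives were TMM, DESeq2 1.42.0, limma 3.58.1 on log2(FPKM + 1) and log2(FPKM + 0.1), haemoglobin left out, other filters, 2 groups alone, a replicate block and each library left out. The scripts were first tested on simulated counts.

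Members and marker lists were chosen with earlier results of these data known. Every member is named, the other Ms4a genes are named or counted, the 5 nearest genes of each member are named, and from each marker list at most 3 genes of highest level, along with Clec7a, Tyrobp, Trem2, Csf1r, Ly6c2 and genes at 0. Ratios within libraries and overlapping genes were chosen after values were seen. Nothing says how mice were assigned to sequencing runs, and p-values measure the spread between libraries, each taken as a single mouse. The floor covers counting error only.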

Additional observations from a re-analysis of the deposited data

How the results depend on the processing

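Of the 30 log2 fold changes (5 genes in 6 comparisons), 2 changed sign under some alternative. Ms4a6b in scivMSC against DNCB was 0.35 with TMM scaling and 0.33 with DESeq2. Ms4a4a in scMSC against Solvent was 0.40 with TMM, 0.39 with DESeq2, 0.093 with haemoglobin left out, 0.55 without Solvent replicate 1 and 0.20 without scMSC replicate 2, in a range from -0.61 to 0.55 over the left-out libraries. With TMM and with DESeq2 the number of genes called was 3 in scivMSC against DNCB and 1 in scivMSC against scMSC. TMM called 18.9% and 4.92% of all genes as lower in these 2 comparisons. A mean FPKM of at least 5 left Ms4a6b alone to be tested, and it gave 0 calls in scMSC against DNCB and 1 in DNCB against Solvent, scivMSC against DNCB, scivMSC against scMSC and scivMSC against Solvent. Without a filter 1 gene was called in DNCB against Solvent. Limma with a pseudocount of 1 called 2 in scMSC against Solvent and 1 between scivMSC and scMSC. With haemoglobin left out 1 was called in scMSC against Solvent. With 2 groups alone 4 were called in scMSC against Solvent and 0 for scivMSC against scMSC. Leaving out a library gave 2 to 3 calls in scMSC against DNCB, 1 to 3 in DNCB against Solvent, 5 to 5 in scivMSC against DNCB, 0 to 3 in scMSC against Solvent, 2 to 4 in scivMSC against scMSC and 4 to 5 in scivMSC against Solvent. For the settings other than TMM the share of all genes called is not given, so nothing is read from these counts. The cause was not tested. The replicate block changed 0 of the 30 calls. Among pairs of libraries with the same replicate number, 3 of 18 had deviations correlated above 0.1 (-0.200 to 0.173). Pairs with different numbers were not compared, so these values cannot show whether the numbers pair the mice. TMM scaling moved the median of all genes by 1.57 in scivMSC against DNCB, 0.69 in scMSC against DNCB, -0.14 in DNCB against Solvent, 0.86 in scivMSC against scMSC and 0.55 in scMSC against Solvent. Depth limits Ms4a7 in all groups and Ms4a6d, Ms4a4a and Ms4a4c in scivMSC. It also limits Ms4a6c in scivMSC replicate 2, and Ms4a4a in Solvent replicate 2 and scMSC replicate 2.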

Other observations

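Tmem176b and Tmem176a, relatives of the Ms4a genes that lie outside the cluster, were not called in DNCB against Solvent or were too low to be tested. Tmem176b had 0.517 to 1.13 FPKM in Solvent, 0.732 to 1.26 in DNCB, 0.880 to 1.02 in scMSC and 0.125 to 0.460 in scivMSC, so only the scivMSC mice stood apart. Its log2 fold change was 0.22 ± 0.51 (SE) for DNCB against Solvent (adjusted p = 0.815) and -1.45 ± 0.53 for scivMSC against DNCB (adjusted p = 0.0230, edgeR's quasi-likelihood test with Benjamini-Hochberg adjustment), and the latter was 0.11 with TMM scaling. Tmem176a did not pass the filter and had a mean of 0.324 FPKM in Solvent, 0.331 in DNCB, 0.559 in scMSC and 0.0702 in scivMSC.

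The monocyte lists did not move alike. Of 7 tested genes of classical monocytes 3 were called as higher in DNCB than in Solvent, with a median log2 fold change of 1.00, and of 6 tested genes of patrolling monocytes 1 was, with a median of 0.09. In scMSC against DNCB 5 of 7 and 2 of 6 were called as lower, beside 24.9% of all genes tested. In scivMSC against DNCB 6 of 7 and 5 of 6 were called as lower, beside 62%. With TMM scaling 3 of 7 and 4 of 6 were called as lower there, beside 18.9% of all genes, and 1 classical gene as higher. The share of all genes called as higher there is not given, so nothing is read from the latter. The difference between the lists was not tested. In DNCB against Solvent the B cell list had 6 of 6 tested genes called as lower (median -2.09) and the NK cell list 2 of 3 as lower (median -1.42). The basophil and mast cell list had 2 of 4 called as higher (median 2.00) and the platelet list 3 of 6 as higher (median 1.06). Over all genes tested, 20.5% were called in this comparison in either direction, and the median was 0.06. Ly6c2, of the classical list, had 2.02 ± 0.880 FPKM (SD, n = 3) in Solvent, 4.05 ± 1.80 in DNCB, 1.11 ± 0.177 in scMSC and 0.679 ± 0.367 in scivMSC.

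AW112010, the other gene that passed the filter inside the stretch of Ms4a genes, had 13.5 ± 5.06 FPKM (SD, n = 3) in Solvent, 4.40 ± 2.02 in DNCB, 4.54 ± 1.32 in scMSC and 2.87 ± 1.69 in scivMSC. It fell in DNCB against Solvent by 1.61 ± 0.51 on the log2 scale (adjusted p = 0.0335, edgeR's quasi-likelihood test with Benjamini-Hochberg adjustment).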
